A study of Mus musculus with 9 samples.

Results

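NUP98-CDX4 marrow cells were compared with EGFP control cells over 10018 named genes, on 6 of the 9 expression arrays of the study. The 6 arrays are the 3 whose title names NUP98-CDX4 and the 3 whose title names EGFP, a fluorescent protein that served as the control. In all groups the donors were C57/B6 mice, 6 to 8 weeks of age, treated with 5-FU, a drug that kills cycling cells. Their bone marrow cells were cultured in IMDM that held 2% serum and both IL-6 and stem cell factor. Both constructs were put into the cells by transfection according to the labels, which name neither promoter nor vector and do not say whether samples came from separate animals or cultures. The p-values therefore measure the spread between these samples, which may be technical. The remaining 3 arrays carry NUP98-CDX1, a related fusion, and entered the fit only to share its estimate of the spread, except where the fusions are compared directly.

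NUP98 is a protein of the nuclear pore, and leukaemias of people carry translocations that join its front part to a homeodomain or a chromatin protein. CDX4 belongs to the caudal family of homeodomain factors, which bind DNA and act upstream of the HOX genes in embryonic blood formation. In marrow, high HOX and MEIS levels are typical of stem and early progenitor cells, and these levels fall as cells mature into granulocytes and macrophages.

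The values are normalized log2 probe intensities, so a difference of 1 is a change of 2 times, and values of different genes are not on a common scale. A probe counted as detected on an array where the deposited detection p was under 0.05. The 6 arrays detected 17257 to 18754 of 45281 probes, which is 38.1% to 41.4%, and their number limits the precision. A gene is said to have risen or fallen where its adjusted p in limma was under 0.05. By that rule 611 of the 10018 genes, 6.10%, were called: 274 rose (2.74%) and 337 fell (3.36%). The median difference over all genes was 0.03, and 431 of the called genes differed by at least 2 times. The 3 values of each group did not overlap for any of these 611 genes, while 22.5% of all genes had groups that did not overlap.

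Certain arrays stood apart before any gene was considered. The day in the column names is 17, 17 and 20 for NUP98-CDX4 replicates 1, 2 and 3 and 21 for all EGFP arrays, so day and construct cannot be told apart. The inactive-X transcript Xist read 11.64 and 11.87 on NUP98-CDX4 replicates 1 and 2 and 4.47 on replicate 3, while the EGFP arrays read 4.51, 4.50 and 4.51, so 2 of the 3 NUP98-CDX4 samples held RNA of female cells and the others did not. The arrays also fell into a brighter set (EGFP replicates 1 and 2, NUP98-CDX4 replicates 1 and 3) and a dimmer set (EGFP replicate 3, NUP98-CDX4 replicate 2), recognised from the signals of undetected probes. With the set as a block, 1835 genes (18.3%) passed, 977 higher and 858 lower, among them all 611. All 611 had the same sign within each set, which groups that do not overlap must give, so this does not test the sets.

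The constructs themselves could not be checked with these probes. The Cdx4 probe was detected on 0 NUP98-CDX4 arrays and on 1 EGFP array, and it was not tested. Nup98 read 8.49, 8.96 and 8.39 with NUP98-CDX4 and 8.13, 8.55 and 8.65 with EGFP, with overlapping groups and an adjusted p of 0.916. The sources used here do not say where these probes lie relative to the fused parts. The marrow label was borne out by Kit, the stem cell factor receptor, which was detected on all 6 arrays and read 11.72, 12.37 and 12.15 against 11.94, 11.89 and 12.26 (adjusted p 0.98). The haematopoietic surface gene Ptprc and the progenitor gene Cd34 were also detected on all 6 arrays. Most defining T cell, B cell and stromal markers, such as Cd3e, Cd79a and Col1a1, did not pass the detection filter. Some did: 3 of 20 T and NK cell markers, 6 of 20 B cell markers and 4 of 17 stromal markers were measured, with 0 called. The 3 T and NK cell markers had a summed linear intensity of 8272 to 9012 with EGFP and 7660 to 9647 with NUP98-CDX4.

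**Figure D1:**
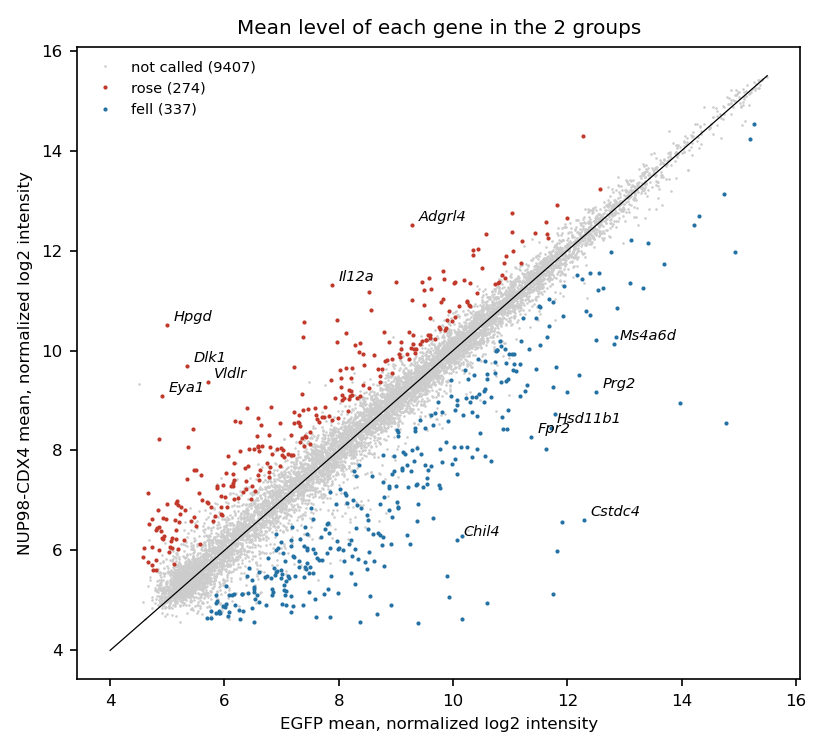
Mean normalized log2 intensity of each of the 10018 genes in the EGFP arrays (horizontal) and the NUP98-CDX4 arrays (vertical), with 3 arrays a group and the diagonal marking equal levels. Red points are the 274 genes that rose, blue points the 337 that fell and grey points the rest. The falls reach farther from the diagonal than the rises.

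The genes that rose most, outside the Hoxa, granule, mast cell and interferon genes, were regulators, surface proteins and enzymes rather than 1 class. Hpgd, which encodes the dehydrogenase that inactivates prostaglandins, read 10.94, 10.23 and 10.34 in the 3 NUP98-CDX4 arrays. In the EGFP arrays it read 4.97, 5.25 and 4.76 and was detected on 0 of 3. All NUP98-CDX4 values lay far above all EGFP values, which makes Hpgd at least 35.3-fold higher (adjusted p 5.4e-06). Dlk1, an imprinted gene whose membrane protein resembles Notch ligands, read 9.46, 10.58 and 9.05 against 4.76, 6.02 and 5.27, a difference of 4.35 ± 0.43 (SE; adjusted p 0.00092), with detection on 2 of the 3 EGFP arrays. Eya1, a phosphatase and transcriptional coactivator of homeodomain factors, read 9.03, 9.35 and 8.87 against 4.70, 4.66 and 5.38, a difference of 4.17 ± 0.23 (adjusted p 2e-05), with detection on 1 EGFP array. Hpgd, Dlk1 and Eya1 were thus close to the detection floor in the controls and well measured with the fusion.

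Vldlr, the very low density lipoprotein receptor, read 8.49, 9.76 and 9.84 against 5.49, 5.39 and 6.25 (difference 3.65 ± 0.38, adjusted p 0.001). Il12a, the p35 subunit of interleukin 12, read 10.87, 11.84 and 11.24 against 7.61, 7.81 and 8.24, a 10.8-fold rise (adjusted p 0.00026). Neither gene had overlapping groups, which the choice of the largest rises required, and Il12a was detected on all 6 arrays. Promoter windows of Hpgd, Dlk1, Vldlr and Il12a, the 4 largest of these rises apart from Eya1, which has no entry in the RefSeq promoter table used here, are shown because CDX and HOX proteins bind short A/T-rich sites, and they let a reader see which windows hold such letters. Each is a RefSeq window from 250 bases before to 50 bases after a start of the gene, on build GRCm38.p6. Capitals mark matches, on either strand, to a CDX motif (TTTATG), a motif of HOX with its cofactor (TGATTNAT), a MEIS motif (TGACAG) or a shared HOX and CDX core (ATAAAA).
Hpgd, chr8:56294302-56294601, plus strand: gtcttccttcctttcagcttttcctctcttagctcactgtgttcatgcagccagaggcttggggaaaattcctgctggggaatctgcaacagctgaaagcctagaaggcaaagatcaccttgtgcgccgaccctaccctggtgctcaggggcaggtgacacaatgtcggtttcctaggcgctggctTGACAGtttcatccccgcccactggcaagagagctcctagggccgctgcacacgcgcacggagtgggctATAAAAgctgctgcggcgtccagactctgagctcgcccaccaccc
Dlk1, chr12:109452573-109452872, plus strand: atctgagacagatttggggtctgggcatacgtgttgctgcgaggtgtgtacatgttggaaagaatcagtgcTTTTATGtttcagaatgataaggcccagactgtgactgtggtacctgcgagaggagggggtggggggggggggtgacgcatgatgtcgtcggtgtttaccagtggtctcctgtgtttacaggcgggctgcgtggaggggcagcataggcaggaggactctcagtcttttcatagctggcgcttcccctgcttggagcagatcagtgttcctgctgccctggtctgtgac
Vldlr, chr19:27216234-27216533, plus strand: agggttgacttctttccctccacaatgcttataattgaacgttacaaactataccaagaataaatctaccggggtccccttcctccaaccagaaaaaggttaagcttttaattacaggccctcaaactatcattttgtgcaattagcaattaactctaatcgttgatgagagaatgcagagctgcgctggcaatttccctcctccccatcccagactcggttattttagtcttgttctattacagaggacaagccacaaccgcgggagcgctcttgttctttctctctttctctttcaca
Il12a, chr3:68690394-68690693, plus strand: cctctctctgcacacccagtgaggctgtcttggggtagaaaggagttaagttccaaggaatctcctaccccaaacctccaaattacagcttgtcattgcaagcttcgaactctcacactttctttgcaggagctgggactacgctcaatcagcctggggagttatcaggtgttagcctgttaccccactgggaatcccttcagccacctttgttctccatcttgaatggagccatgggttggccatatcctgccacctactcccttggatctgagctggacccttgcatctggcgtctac
The Hpgd window held the MEIS letters and the core, and the Dlk1 window held the CDX letters overlapping the core. The Vldlr and Il12a windows shown held none of the 4. Vldlr and Il12a had 2 windows each, of which only 1 is shown and described. The shares below also use 1 window per gene. Over the windows of 8193 genes, the CDX letters occurred in 6.55%, against 5.75% of the 226 called rises and 9.85% of the 264 called falls that had a window. These rises and falls were not limited to genes outside the Hoxa, granule, mast cell and interferon lists. The cofactor motif occurred in 1.32% of all windows, 3.1% of those of rises and 2.65% of those of falls. The MEIS letters were in 17% of all, 17.7% of rises and 21.6% of falls, and the core was in 9.96%, 11.9% and 12.5%. These shares describe letters in a short window and not binding.

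Further genes among the 20 largest rises belong to the cell surface and the secreted space. Adgrl4, an adhesion receptor best known from endothelium, read 11.85, 13.14 and 12.56 against 8.43, 9.25 and 10.17, a 9.39-fold rise (adjusted p 0.0033). Igfbp7, a secreted protein that binds insulin-like growth factors, read 11.40, 10.68 and 11.44 against 8.56, 9.15 and 7.85, a 6.27-fold rise (adjusted p 0.0033). H2-Ob, a chain of the H2-O protein that restrains peptide loading onto MHC class II, read 7.90, 8.58 and 8.81 against 5.33, 5.23 and 5.78 (difference 2.98 ± 0.27, adjusted p 0.00052). None of these groups overlapped, which the choice of the largest rises required. Ppm1e, a serine/threonine phosphatase, was detected on 0 EGFP arrays and was at least 7.30-fold higher, and 1 of its other 3 probes did not pass. Myl10, Whrn, Pcp4l1, Dnajc6 and Smagp rose by 2.64, 2.46, 2.26, 2.23 and 2.20. Tsc22d1 rose by 2.45, but its other probe differed by 0.07. Bcat1, which starts the breakdown of branched-chain amino acids, read 8.94, 9.18 and 7.65 against 6.07, 5.69 and 6.79, and its adjusted p of 0.03 reached 0.13 without EGFP replicate 2.

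**Figure D2:**
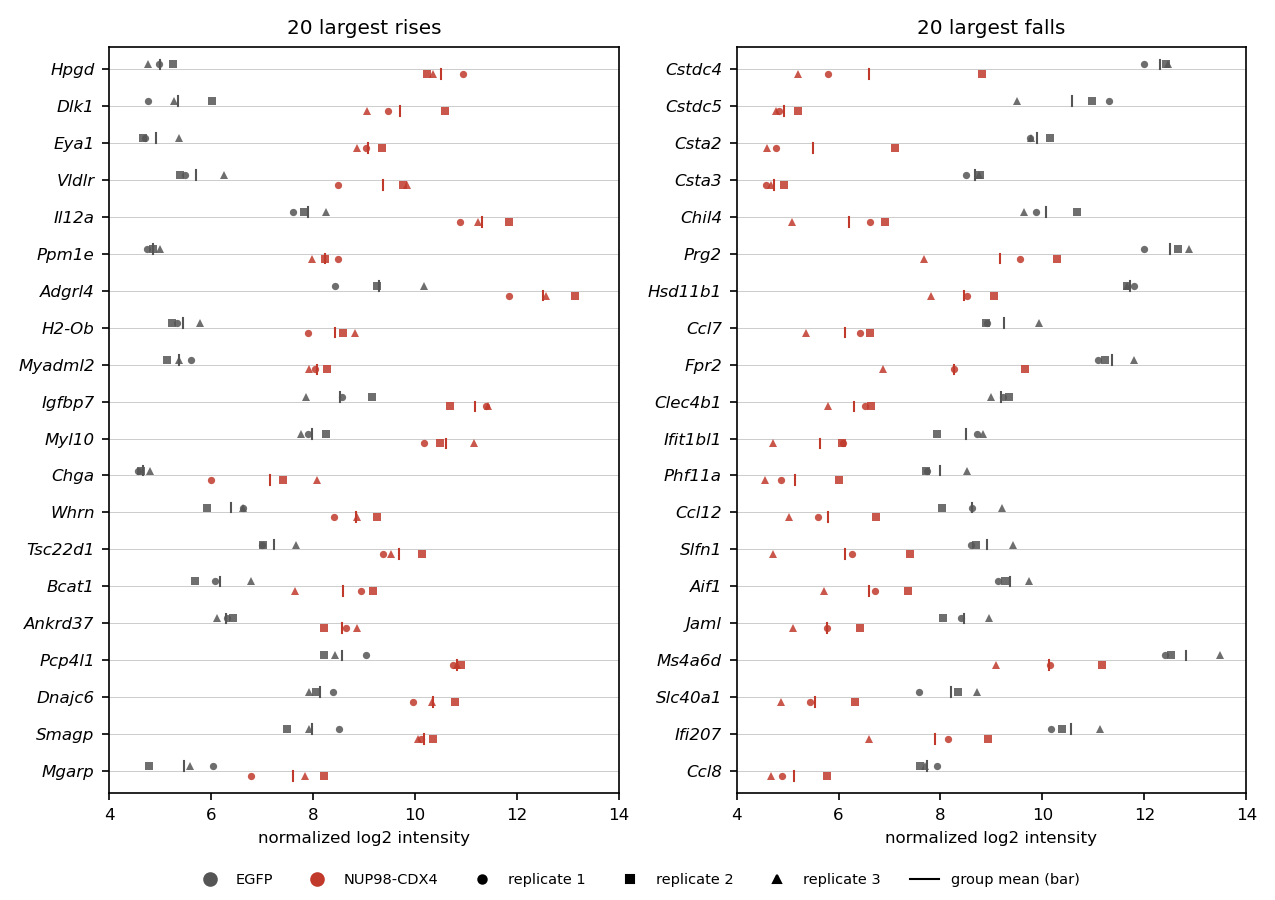
Normalized log2 intensity of the 20 largest rises (left) and 20 largest falls (right) outside the Hoxa, late neutrophil, primary granule, mast cell and interferon lists. Each point is 1 array, in grey for EGFP and red for NUP98-CDX4, marker shape gives the replicate and the vertical bar is the mean of 3. Genes were chosen so that the groups do not overlap, and NUP98-CDX4 replicate 3 (triangles) is the lowest for most falls.

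Several transcription factors of stem and progenitor cells rose. Of 36 such genes measured, 11 rose and 0 fell, against 2.74% and 3.36% of all genes, and their median difference was 0.35 against 0.03 for all genes. Besides Eya1, the rises were Meis1, Gfi1b, Mef2c, Hmgn3, Tcf4, Mllt3, Pbx3, Bcl11a, Sox4 and Kmt2a. Meis1, the homeodomain cofactor of HOX proteins, read 11.59, 11.67 and 11.55 against 9.78, 9.78 and 9.91, a 3.43-fold rise (adjusted p 0.0012). Its SD was 0.06 with NUP98-CDX4 and 0.08 with EGFP, far less than the distance between the groups. Pbx3, another HOX cofactor, read 6.51, 7.29 and 7.03 against 5.66, 5.48 and 5.99 (difference 1.23, adjusted p 0.0182). Mef2c, a MADS-box factor active in lymphoid and early myeloid progenitors, read 11.84, 12.22 and 11.95 against 10.32, 10.03 and 10.71, a 3.15-fold rise (adjusted p 0.0022). Gfi1b, a repressor of stem cell and erythroid stages, read 9.45, 9.52 and 9.29 against 7.68, 8.02 and 7.87 (difference 1.56 ± 0.17, adjusted p 0.0013). Hmgn3, a nucleosome-binding protein, rose 3.30-fold (adjusted p 0.00349).

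Other members of that list did not pass. Gata2 read 11.86, 11.95 and 12.17 against 11.75, 12.004 and 11.43 (adjusted p 0.665), with overlapping groups. Myb read 8.62, 8.11 and 8.40 against 7.82, 8.00 and 7.74, with groups that did not overlap (adjusted p 0.796). Runx1 read 8.76, 8.87 and 8.43 against 8.74, 8.80 and 9.18 (adjusted p 0.793). The number of rises in the list was 5 without EGFP replicate 1 or without EGFP replicate 2, 6 without NUP98-CDX4 replicate 3 and 7 without NUP98-CDX4 replicate 2. The calls of Tcf4 and Kmt2a were among those lost, at adjusted p up to 0.06 and 0.13, and another probe of Tcf4 differed by -0.21 while another of Kmt2a differed by 0.30, neither of them called.

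**Figure D3:**
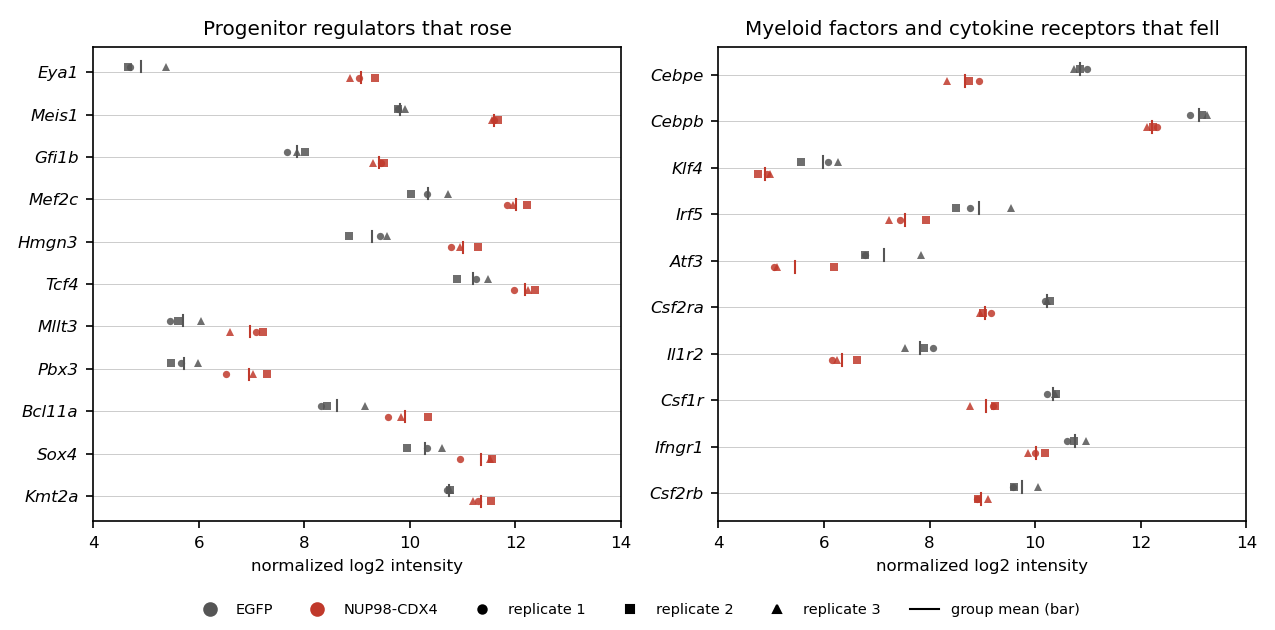
Normalized log2 intensity on each array for the 11 progenitor transcription factors that rose (left) and for 5 myeloid transcription factors and 5 cytokine receptors that fell (right). Grey is EGFP, red is NUP98-CDX4, marker shape is the replicate and the bar is the mean of 3. Meis1 shows narrow groups far apart, and Atf3, which rests on a wide spread, shows the groups near each other.

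Genes of the progenitor cell surface also held changes of both signs. Of 16 measured, 3 rose (Cd27, Cd93, Angpt1) and 1 fell (Prom1), which is 18.75% and 6.25% against 2.74% and 3.36% of all genes. The median was 0.10. Cd27, a TNF-receptor family member of progenitors and lymphocytes, read 11.18, 11.60 and 11.52 against 9.55, 9.69 and 10.28, a 3.01-fold rise (adjusted p 0.0032). Cd34 read 10.24, 9.29 and 10.44 against 10.10, 10.04 and 8.67, with overlapping groups (adjusted p 0.863). The calls of Cd93, Angpt1 and Prom1 were lost on leaving out single arrays, with adjusted p of 0.075, 0.11 and 0.06 without EGFP replicate 2, and the count of rises was 1 without EGFP replicate 1 or 2. The other probe of Angpt1 differed by 0.07 and was not called.

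Of 13 measured genes listed as endothelial or angiogenic, 3 (23.1%) rose (Adgrl4, Egfl7 and Calcrl), against 2.74% of all genes, and 0 fell. The median was 0.26, or 0.14 with undetected values at their bound. Egfl7, a secreted protein whose gene hosts a miRNA, read 11.70, 12.98 and 12.33 against 10.56, 10.48 and 10.70, a 3.37-fold rise (adjusted p 0.0068), with another probe at 0.27 and no call. Calcrl, the receptor for adrenomedullin and CGRP, was detected on 0 EGFP arrays and was at least 1.33-fold higher. The defining endothelial genes Cdh5, Kdr, Tek and Emcn did not pass the detection filter.

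Among Notch pathway genes, 4 of 19 (21%) rose (Dlk1, Adam17, Hes6, Jag2), against 2.74% of all genes, and 0 fell, with a median of 0.23. Adam17, the protease that sheds TNF and also cuts Notch, read 11.40, 11.18 and 11.55 against 9.89, 10.24 and 9.96, a 2.55-fold rise (adjusted p 0.0015). The receptor Notch1 itself read 8.60, 8.39 and 8.93 against 9.37, 8.92 and 8.18 (adjusted p 0.933). Jag2 was near the floor in both groups and detected on 2 NUP98-CDX4 arrays, and the Notch count was 2 without NUP98-CDX4 replicate 1, EGFP replicate 1 or EGFP replicate 3. Of 20 Wnt genes only Ctnnal1 rose, which is 5% against 2.74% of all genes. The other 2 probes of Ctnnal1 differed by 0.13 and 0.30 without a call.

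Genes of glycolysis and the hypoxia response rose in part. Of 36 measured, 5 (13.9%) rose (Ankrd37, Vegfa, Egln3, Aldoc, Pfkm), against 2.74% of all genes, and 0 fell. The median was 0.32 against 0.03 over all genes, and it was 0.33 in the brighter arrays and 0.36 in the dimmer ones. With the array set as a block, 14 rose and 1 fell, against 977 and 858 of all 10018 genes. Ankrd37, a target of hypoxia-inducible factor, read 8.64, 8.22 and 8.85 against 6.30, 6.42 and 6.12, a 4.89-fold rise (adjusted p 0.00071). Egln3, a prolyl hydroxylase that marks hypoxia-inducible factor for destruction, read 12.09, 11.71 and 11.93 against 10.79, 10.43 and 9.84, a 2.94-fold rise (adjusted p 0.0089). The angiogenic growth factor Vegfa rose 3.00-fold (adjusted p 0.0035). In each of these genes, as in every called rise, all NUP98-CDX4 values exceeded all EGFP values.

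The abundant glycolytic enzymes moved less. Ldha read 14.22, 14.39 and 14.26 against 14.12, 14.01 and 14.05 (adjusted p 0.532), and the glucose transporter Slc2a1 read 10.96, 11.15 and 10.82 against 10.41, 10.55 and 10.57 (adjusted p 0.134), with groups that did not overlap in either case. Gapdh differed by 0.10 (adjusted p 0.891). Without EGFP replicate 2 or NUP98-CDX4 replicate 3 the list had 3 rises, and the call of Aldoc was lost at adjusted p of 0.092 and 0.072. Of 27 genes of the TCA cycle and pyruvate, 0 passed with the main fit (median 0.07), and 2 rose and 1 fell with the set as a block. Over all 10018 genes, 977 rose and 858 fell with that block.

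Genes that restrain death or division were among the rises. Of 45 apoptosis and p53 target genes, 5 (11.1%) rose and 1 (2.22%) fell, against 2.74% and 3.36% of all genes, and the median was -0.02. Bcl2, the founding inhibitor of apoptosis, read 10.16, 10.34 and 10.03 against 8.84, 8.81 and 8.98, a 2.46-fold rise (adjusted p 0.0012). Pmaip1, a BH3-only protein that promotes apoptosis, rose as well, by 1.22 (adjusted p 0.0063). The cyclin-dependent kinase inhibitor Cdkn2c read 9.19, 9.32 and 9.83 against 7.99, 7.91 and 8.23, a 2.65-fold rise (adjusted p 0.0054). Cdkn1c, an imprinted inhibitor of the same kinases, rose 2.99-fold (adjusted p 0.015), a call lost without NUP98-CDX4 replicate 1 (0.056) or EGFP replicate 2 (0.059). Sesn1 rose by 1.23 (adjusted p 0.0152), while Bcl2a1d, an NF-kB target that protects myeloid cells, fell by 1.53 (adjusted p 0.011). Members with opposite known roles therefore lie among the rises, and the count was 3 without EGFP replicate 2.

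The machinery of division showed no called gene. Of 56 genes of DNA replication and entry into S phase, and of 55 of mitosis, 0 passed in limma's main fit, with medians of 0.14 and 0.01. Mcm2, a subunit of the replicative helicase, read 11.41, 11.44 and 11.40 against 11.31, 11.31 and 11.47 (adjusted p 0.959). With the array set as a block, 7 replication genes rose, and 1 mitotic gene rose and 1 fell. Nuclear pore and transport genes had 0 of 52 called and a median of 0.01, ribosomal proteins 0 of 61 and 0.11, and splicing factors 0 of 52 and 0.07. With the block, 3, 6 and 2 genes rose in these 3 lists, and 1 pore gene fell. Over all 10018 genes, the block gave 977 rises and 858 falls.

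Chromatin genes rose in small numbers. Of 57 polycomb, trithorax and DNA methylation genes, 5 (8.77%) rose (Hdac7, Phc1, Cbx7, Kmt2a, Cbx6), against 2.74% of all genes. In this list 0 fell, and the median was 0.16. Hdac7, a class IIa histone deacetylase, read 10.04, 10.43 and 10.04 against 9.12, 8.91 and 9.25 (difference 1.08 ± 0.17, adjusted p 0.0065). Phc1, a subunit of polycomb repressive complexes, read 9.73, 9.82 and 9.81 against 8.98, 9.03 and 8.45 (adjusted p 0.013). The call of Phc1 was lost without NUP98-CDX4 replicate 3 (0.053), and the list count ran from 1 without NUP98-CDX4 replicate 3 and 2 without EGFP replicate 2 to 3 without any of the other NUP98-CDX4 or EGFP arrays or NUP98-CDX1 replicate 1 or 2. Of 62 histone genes, 4 (6.45%) rose (H1f10, H1f1, H2ac4, H3c3), against 2.74% of all genes, and 0 fell, with a median of 0.33. With the block 19 rose, against 977 of all 10018 genes. Histone genes have much sequence in common and their probes may share signal, and H1f10 and H1f1 were detected on 0 EGFP arrays and were at least 2.08-fold and 1.81-fold higher. The histone count was 2 on leaving out any of NUP98-CDX4 replicates 1 and 2 and the EGFP arrays.

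**Figure D4:**
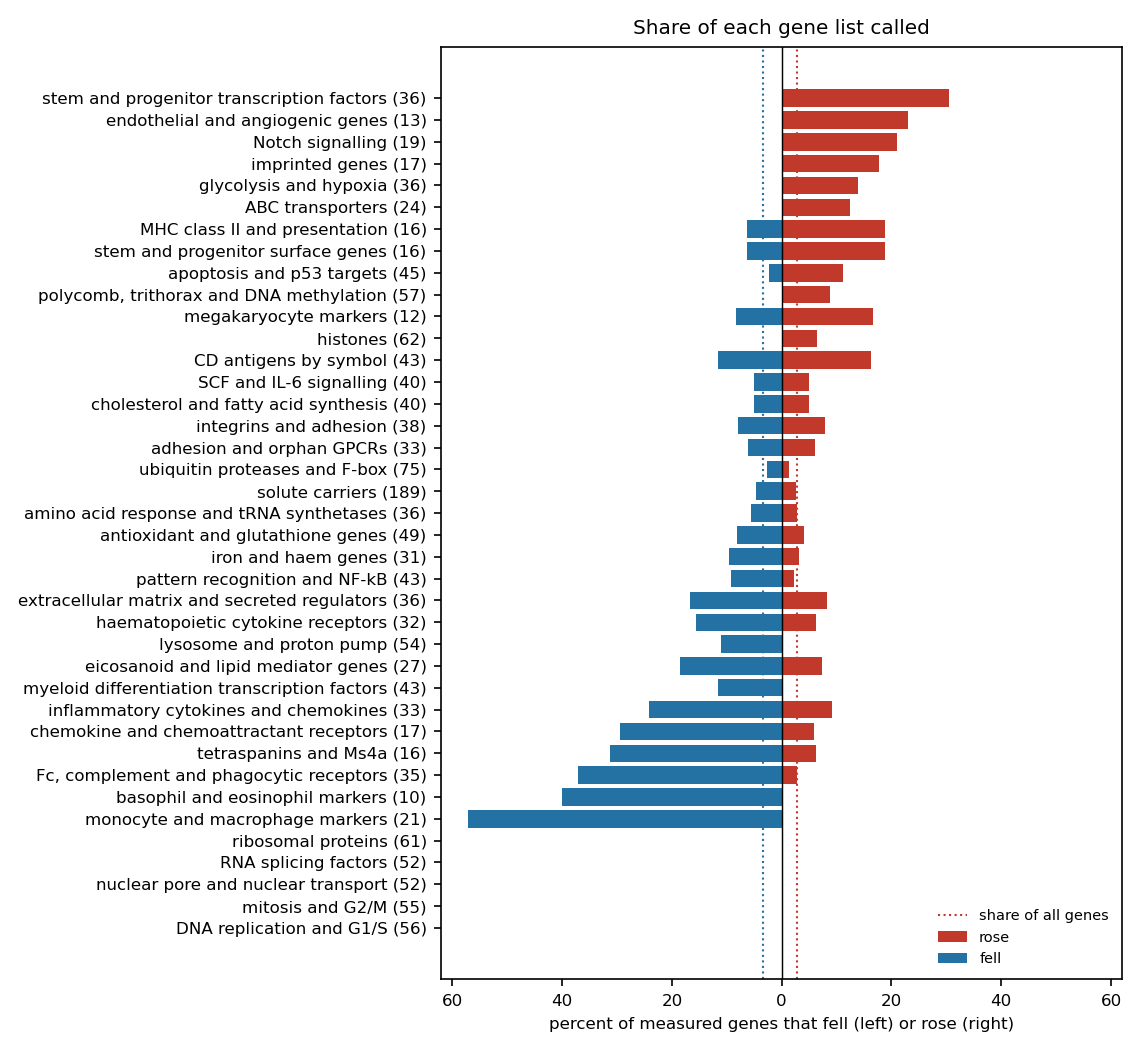
Percent of the measured genes of each list that rose (red, right) or fell (blue, left), with the number measured in brackets and dotted lines at the shares of all genes, 2.74% and 3.36%. Most lists with at least 3 called genes and 10 measured are drawn, with 5 lists that had 0 called at the bottom. Progenitor transcription factors lead on the right, and some genes belong to several lists. Macrophage markers extend farthest to the left, followed by basophil and eosinophil markers and then phagocytic receptors.

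The falls included markers of monocytes and macrophages. Of 21 such markers measured, 12 (57.1%) fell, against 3.36% of all genes, and 0 rose, with a median of -1.27. Their summed linear intensity was 43090 to 66870 with NUP98-CDX4 against 92360 to 101100 with EGFP. In bulk RNA, fewer cells of a type and less RNA per cell cannot be told apart, for this and the groups that follow. Adgre1, which encodes the macrophage surface protein F4/80, read 8.52, 8.10 and 7.61 against 10.16, 10.26 and 9.999, a 4.18-fold fall (adjusted p 0.001). The marker count was 7 without EGFP replicate 1, EGFP replicate 2 or NUP98-CDX4 replicate 3. Basophil and eosinophil markers fell in 4 of 10 cases (40%), against 3.36% of all genes, and in 3 to 5 with an array left out. The 4 included Cebpe, which is also in the list of myeloid maturation factors. Another was Prg2, the eosinophil major basic protein, which read 9.55, 10.30 and 7.67 against 11.99, 12.65 and 12.88 (difference -3.33 ± 0.58, adjusted p 0.011, or 0.052 without EGFP replicate 2). Of 8 erythroid markers, 2 (25%) rose (Gfi1b and Car2), against 2.74% of all genes, and 0 fell. The sums of these markers overlapped, at 10000 to 25090 against 10130 to 15260. The call of Car2 was lost without NUP98-CDX4 replicate 1 (0.088) or 2 (0.067) or EGFP replicate 1 (0.086) or 3 (0.065). Of 12 megakaryocyte markers 2 (16.7%) rose (Nrgn and Gp9) and 1 (8.33%) fell (Ppbp). The call of Gp9 was lost without any NUP98-CDX4 array, EGFP replicate 1 or 3 or NUP98-CDX1 replicate 1, at adjusted p up to 0.12. That of Ppbp was lost without NUP98-CDX4 replicate 1 or 3 or EGFP replicate 2 or 3, at adjusted p up to 0.15.

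Some receptors for antibody, microbes and dying cells also fell. Of 35 Fc, complement and phagocytic receptors, 13 (37.1%) fell and 1 (2.86%) rose (Cd93), against 3.36% and 2.74% of all genes. The median was -0.96. Fcgr1, the high-affinity IgG receptor, read 6.91, 7.51 and 6.00 against 8.93, 8.48 and 9.24, a 4.22-fold fall (adjusted p 0.0089). Fcgr3, a low-affinity IgG receptor, read 9.52, 9.05 and 8.83 against 10.32, 10.61 and 10.46, a 2.51-fold fall (adjusted p 0.0051). Lilrb4a, an inhibitory receptor of myeloid cells, read 7.17, 7.30 and 6.29 against 9.16, 9.48 and 9.54, a 5.55-fold fall (adjusted p 0.0024). Groups did not overlap for any of these receptors, as for every called gene. Trem2, a lipid-sensing receptor of macrophages, fell by 1.72 (adjusted p 0.0152), and Clec5a, whose 3 other probes were all called in the same direction, fell by 2.10. The count was 6 without EGFP replicate 2, 7 without NUP98-CDX4 replicate 1 or 3 and 8 without EGFP replicate 3. The part of the lower macrophage marker sum in this group and the next ones was not tested.

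Cytokine receptors held changes of both signs. Of 32 haematopoietic cytokine receptors, 5 (15.6%) fell and 2 (6.25%) rose, against 3.36% and 2.74% of all genes, and the median was -0.17. Csf1r, the receptor for macrophage colony-stimulating factor, read 9.19, 9.25 and 8.76 against 10.22, 10.39 and 10.38, a 2.40-fold fall (adjusted p 0.0039). Csf2ra, which binds granulocyte-macrophage colony-stimulating factor, read 9.17, 9.02 and 8.95 against 10.19, 10.28 and 10.22, a 2.27-fold fall (adjusted p 0.0028), and its signalling partner Csf2rb fell by 0.77 (adjusted p 0.0286). The decoy receptor Il1r2 fell by 1.48 and the interferon-gamma receptor chain Ifngr1 by 0.75. Csf3r, the receptor for granulocyte colony-stimulating factor, read 10.22, 9.80 and 10.41 against 10.55, 10.51 and 10.38, with overlapping groups (adjusted p 0.499). Il27ra rose, from 7.29, 7.43 and 7.19 to 8.54, 9.04 and 8.56 (2.65-fold, adjusted p 0.002), and Il18r1 rose from below detection on all EGFP arrays (at least 2.42-fold). The count of falls was 3 without NUP98-CDX4 replicate 1 or 3 or EGFP replicate 2 or 3, and that of rises 1 without NUP98-CDX4 replicate 3, NUP98-CDX1 replicate 2 or any EGFP array.

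Among 40 genes of stem cell factor and IL-6 signalling, 2 rose and 2 fell, 5% each way against 2.74% and 3.36% of all genes. These counts lie near the shares of all genes, and the list is not read as a pathway result. Etv4, an ETS factor induced by receptor tyrosine kinases, read 8.02, 8.29 and 7.94 against 6.57, 6.87 and 6.53, with no overlap (difference 1.43 ± 0.19, adjusted p 0.0027). Fgr, a SRC-family kinase of myeloid cells, fell by 1.18 (adjusted p 0.0089). The feedback inhibitor Socs2 rose by 1.41, a call lost without EGFP replicate 1 (0.089) or 2 (0.1) or NUP98-CDX4 replicate 2 (0.071) or 3 (0.096). Pik3cd fell by 0.56, a call lost on leaving out any single array of the 6, at adjusted p up to 0.13, and its other probe differed by -0.09.

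Some receptors for chemoattractants and some chemokines fell. Of 17 receptors, 5 (29.4%) fell and 1 (5.88%) rose (P2ry14), against 3.36% and 2.74% of all genes, with a median of -0.55. Fpr2, a formyl peptide receptor, read 8.27, 9.66 and 6.87 against 11.09, 11.23 and 11.80, an 8.60-fold fall (adjusted p 0.015). Ltb4r1, the leukotriene B4 receptor, read 8.81, 9.58 and 8.06 against 10.64, 11.01 and 11.22, a 4.41-fold fall (adjusted p 0.012). The groups did not overlap, yet the SD within NUP98-CDX4 was 1.39 for Fpr2 and 0.76 for Ltb4r1, and 0 receptors were called without EGFP replicate 2, 1 without NUP98-CDX4 replicate 1, and 2 without NUP98-CDX4 replicate 3 or EGFP replicate 3. P2ry14 was not called without any one of NUP98-CDX4 replicates 1, 2 and 3 and EGFP replicates 1 and 2, at adjusted p up to 0.079.

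Of 33 inflammatory cytokines and chemokines, 8 (24.2%) fell and 3 (9.09%) rose, against 3.36% and 2.74% of all genes, with a median of -0.24. The monocyte chemoattractants formed much of the decline: Ccl2 read 5.13, 4.63 and 5.01 against 6.99, 6.96 and 7.05 and was detected on 0 NUP98-CDX4 arrays (at least 3.14-fold lower, adjusted p 0.00026). Ccl7 read 6.42, 6.61 and 5.37 against 8.92, 8.89 and 9.94 (difference -3.12 ± 0.41, adjusted p 0.0029), and Ccl12 and Ccl8, the latter outside the list, fell by 2.83 and 2.62. Il18 fell by 2.26 (adjusted p 0.0013), with another probe at -0.83 and no call. Rising alongside Il12a and Vegfa was Ccl3, a macrophage inflammatory protein, which read 11.70, 11.70 and 10.97 against 9.50, 9.25 and 9.97 (3.69-fold, adjusted p 0.0029). Its neighbour in function Ccl4 read 11.17, 11.68 and 10.31 against 10.70, 10.23 and 11.47, with overlapping groups (adjusted p 0.918). The count of falls was 5 without NUP98-CDX4 replicate 1 or 3 or EGFP replicate 2.

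Transcription factors of myeloid maturation had 5 of 43 genes (11.6%) lower, against 3.36% of all genes, and 0 higher, with a median of -0.16. Cebpe, which drives the late stages of granulocyte maturation, read 8.94, 8.75 and 8.32 against 10.99, 10.85 and 10.73, a 4.55-fold fall (adjusted p 0.0013), and its other 3 probes were called in the same direction. Cebpb, a factor of emergency granulopoiesis, read 12.30, 12.23 and 12.11 against 12.93, 13.15 and 13.25 (difference -0.89 ± 0.15, adjusted p 0.011, or 0.054 without EGFP replicate 2 and 0.05 without NUP98-CDX4 replicate 3). Klf4, Irf5 and Atf3 also fell, in calls that depended on single arrays. The call of Klf4 was lost without EGFP replicate 1 (adjusted p 0.055). That of Irf5 was lost without EGFP replicate 1 (0.057) or NUP98-CDX4 replicate 1 (0.08) or 3 (0.091). Atf3 was not called without NUP98-CDX4 replicate 1 or 3, NUP98-CDX1 replicate 1 or 2 or any EGFP array, at adjusted p up to 0.14. Cebpa, which acts earlier, read 9.19, 8.55 and 8.88 against 8.38, 8.23 and 8.67, with overlapping groups (adjusted p 0.308), and Spi1, the master factor of the myeloid line, read 9.50, 8.85 and 9.32 against 9.77, 9.76 and 9.74 (adjusted p 0.16). Gfi1, the paralogue of the risen Gfi1b, read 10.85, 10.07 and 10.93 against 11.68, 11.62 and 11.17, with no overlap and an adjusted p of 0.0957. The list count was 2 without EGFP replicate 1 or NUP98-CDX4 replicate 3 and 3 without EGFP replicate 2 or NUP98-CDX4 replicate 1.

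Lysosomal genes fell in 6 of 54 cases (11.1%, against 3.36% of all genes) and rose in 0, with a median of -0.28. Under the block 18 were lower and 2 higher, against 858 and 977 of all 10018 genes. Ctsh, a cysteine protease, read 7.90, 8.20 and 7.10 against 9.70, 9.78 and 10.47, a 4.75-fold fall (adjusted p 0.0059). Ctss, which trims the invariant chain of MHC class II, read 7.83, 7.48 and 7.52 against 8.99, 9.27 and 9.07, a 2.83-fold fall (adjusted p 0.0031). While Ctss fell, 3 other genes of the 16 in the MHC class II list (18.75%, against 2.74% of all genes), H2-Ob, H2-Oa and H2-DMa, rose. The calls of H2-Oa and H2-DMa were lost on leaving out single arrays, at 0.072 and 0.14 without NUP98-CDX4 replicate 3. The lysosomal count was 2 without NUP98-CDX4 replicate 1 or any EGFP array and 3 without NUP98-CDX4 replicate 3.

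Lipid mediator genes held changes of both signs, with 2 of 27 (7.41%) rising (Hpgd and Tbxa2r) and 5 (18.5%) falling. Of all genes 2.74% rose and 3.36% fell. The median of the list was -0.27. Tbxa2r, the thromboxane receptor, read 6.66, 7.70 and 6.04 and was detected on 0 EGFP arrays (at least 2.71-fold higher, adjusted p 0.015, or 0.059 and 0.061 without EGFP replicate 1 or 2). Both prostaglandin E receptors among the falls, Ptger3 and Ptger2, respond to the ligand that Hpgd inactivates, and Ptger3 read 6.48, 5.78 and 5.79 against 7.74, 7.57 and 7.01 (difference -1.42, adjusted p 0.015). The count of falls was 0 without EGFP replicate 2, 1 without NUP98-CDX4 replicate 3 and 3 without NUP98-CDX4 replicate 1, EGFP replicate 1 or EGFP replicate 3. Hsd11b1, which regenerates active glucocorticoid, read 8.52, 9.04 and 7.81 against 11.80, 11.66 and 11.67, a 9.53-fold fall (adjusted p 0.00099). Of 40 cholesterol and fatty acid synthesis genes, 2 rose (Vldlr, Lpin1) and 2 fell (Lrp1, Lpl), 5% each way, near the shares of all genes. The call of Lrp1 was lost without NUP98-CDX4 replicate 3 (0.054) or EGFP replicate 1 (0.054) or 2 (0.058). That of Lpin1 was lost at adjusted p up to 0.14. Lpl, the lipoprotein lipase, was widely spread at 7.99, 9.02 and 6.58 against 9.63, 10.12 and 11.23 (adjusted p 0.045). Its call was lost on leaving out any single array except NUP98-CDX4 replicate 2, at adjusted p up to 0.13.

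In redox and iron genes, 4 of 49 antioxidant and glutathione genes (8.16%) fell and 2 (4.08%) rose, against 3.36% and 2.74% of all genes. The median was -0.10. Slc7a11, the cystine carrier that feeds glutathione synthesis, read 5.70, 5.69 and 5.09 against 7.33, 7.09 and 7.29 (difference -1.75 ± 0.21, adjusted p 0.0016). The microsomal glutathione transferase Mgst1 fell by 1.11 (adjusted p 0.0098), with another probe that was not called. The count of falls was 2 without EGFP replicate 1, EGFP replicate 2 or NUP98-CDX4 replicate 3, and that of rises 0 without these or NUP98-CDX4 replicate 1 and 1 without either remaining array. Slc40a1, the iron exporter ferroportin, read 5.43, 6.33 and 4.86 against 7.59, 8.34 and 8.72, a 6.38-fold fall (adjusted p 0.0073), and Lcn2, which binds iron-laden siderophores and is stored in granules, fell by 1.96 (adjusted p 0.00072). All NUP98-CDX4 values of these 4 genes, as of every called fall, lay below all EGFP values. Among 24 ABC transporters, Abca4, Abcb1b and Abcb4 rose (12.5%, against 2.74% of all genes) and 0 fell. The call of Abcb4 was lost without NUP98-CDX4 replicate 1 or 2, EGFP replicate 1 or 2 or NUP98-CDX1 replicate 2, at adjusted p up to 0.13. Abcb1b, a multidrug exporter, read 9.72, 9.64 and 9.61 against 8.07, 8.01 and 8.61 (difference 1.43 ± 0.22, adjusted p 0.0059).

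Matrix and secreted genes were divided. Of 36 measured, 6 (16.7%) fell and 3 (8.33%) rose (Igfbp7, Col18a1, Angpt1), against 3.36% and 2.74% of all genes. Mmp9 and Mmp8, among the falls, are also in the late neutrophil list. The median was -0.29. Fn1, fibronectin, and Mmp9, a gelatinase of granulocytes, were detected on 0 NUP98-CDX4 arrays and were at least 3.54-fold and 2.39-fold lower (adjusted p 0.0041 and 0.0009). Sdc3, a heparan sulfate proteoglycan, read 7.56, 8.34 and 6.69 against 9.85, 9.85 and 10.51, a 5.81-fold fall (adjusted p 0.0054). Without EGFP replicate 2 the falls numbered 3, and the rises numbered 1 without EGFP replicate 1 or 2 or any NUP98-CDX4 array. Pdlim1, an adaptor of actin stress fibres, read 11.64, 11.28 and 11.20 against 9.45, 9.25 and 9.67 (difference 1.92 ± 0.21, adjusted p 0.0012). Acta2 fell by 2.01, but its 3 other probes were not called and differed by -0.60 to 0.11.

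The largest falls outside the granule and interferon lists included 4 stefin-type cysteine protease inhibitors of chromosome 16, Cstdc4, Cstdc5, Csta2 and Csta3. Cstdc4 read 5.80, 8.81 and 5.20 against 11.99, 12.43 and 12.47, and Cstdc5 and Csta3, detected on 0 NUP98-CDX4 arrays, were at least 37.8-fold and 10.1-fold lower. These genes are near copies, so their probes may share signal. Aif1, a calcium-binding protein of macrophages, read 6.71, 7.36 and 5.71 against 9.12, 9.26 and 9.74 (difference -2.78 ± 0.39, adjusted p 0.0037), and Ms4a6d, a membrane protein of macrophages, fell by 2.67 (adjusted p 0.015, or 0.053 without NUP98-CDX4 replicate 1). The 5 lists set aside gave 6 rises and 0 falls among 8 Hoxa genes, 17 falls of 21 late neutrophil genes, 3 falls and 1 rise (Nkg7) of 12 primary granule genes, 8 falls of 13 mast cell granule genes and 23 falls of 30 interferon genes. Over all genes 2.74% rose and 3.36% fell. Of the 611 called genes 58 were in these lists, 202 were in other lists only and 351 were in none. The lists share members, so their counts are not separate results. Mmp9, Mmp8, Ltb4r1, Gstm1 and Hdc, of the lists set aside, were also counted in lists above. The macrophage markers Csf1r, Csf2ra, Fcgr1, Mrc1, Klf4 and Ctss were counted again among receptors, maturation factors or lysosomal genes.

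The 3 NUP98-CDX4 arrays differed among themselves. Replicate 3, the array of day 20, was the lowest of the 3 for 224 of the 337 genes that fell, against 62 for replicate 1 and 51 for replicate 2. Over all 10018 genes the same counts were 3367, 2919 and 3732. Replicate 2, the array in the dimmer set, was the highest for 219 of the falls and for 150 of the 274 rises, and it was also the highest for 4944 of all 10018 genes. EGFP replicate 3, the other array of the dimmer set, was the highest EGFP array for 197 of the falls. Fpr2 (6.87 on replicate 3 against 9.66 on replicate 2), Prg2 and Lpl show that order. The median SD within NUP98-CDX4 was 0.33 over the falls, 0.21 over the rises and 0.24 over all genes. Replicate 3 differs from the others in day and in the sex of the cells, and replicate 2 in array set, so these cannot be told apart.

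Against NUP98-CDX1, whose column names give day 28, 18 genes (0.180%) differed, 4 higher and 14 lower with NUP98-CDX4. This comparison uses the same NUP98-CDX4 arrays as the one against EGFP. Hpgd read 7.99, 7.86 and 8.26 with NUP98-CDX1, between the other groups, and was 5.53-fold higher with NUP98-CDX4 (adjusted p 0.0073). Clec10a, a lectin of macrophages and dendritic cells, read 6.84, 6.69 and 7.25 with NUP98-CDX4, 4.95, 5.32 and 5.40 with NUP98-CDX1 and 4.95, 5.06 and 4.99 with EGFP (adjusted p 0.019). Myadml2 and Hoxa10 were the other genes that were higher. Cpa3, a mast cell carboxypeptidase, read 8.47, 9.20 and 8.51 against 11.71, 11.69 and 11.63, a 7.72-fold difference (adjusted p 0.0034). Cldn15, a claudin of tight junctions, read 8.07, 8.22 and 7.87 against 9.77, 9.72 and 9.39, and EGFP read 9.05, 9.43 and 9.64 (adjusted p 0.023). Anxa1, a phospholipid-binding protein that restrains neutrophils, read 7.58, 7.67 and 7.71 against 8.93, 8.74 and 8.85, with EGFP at 9.04, 9.23 and 9.04 (adjusted p 0.019). For Cldn15, Anxa1 and Cpa3 the NUP98-CDX4 arrays lay apart from both other groups, which overlapped each other except for Anxa1. These calls depended on single arrays. Of the 18 genes, 1 was still called without NUP98-CDX1 replicate 1 or 2 (Cpa3), 2 without NUP98-CDX4 replicate 1 (Cpa3 and Hpgd), 5 without NUP98-CDX4 replicate 3 and 6 without EGFP replicate 2, and 12 to 15 without each remaining array. Cpa3 was called in each of these fits, at adjusted p up to 0.047, and also with the replicate block (0.028), where it was the 1 gene called. The call of Hpgd was lost without NUP98-CDX1 replicate 1 (0.056) or 2 (0.058). That of Cldn15 was lost without NUP98-CDX1 replicate 1 (0.11) or 2 (0.14), NUP98-CDX4 replicate 1 (0.11) or 3 (0.082) or EGFP replicate 2 (0.06). The calls of Anxa1 and Clec10a were lost at adjusted p of 0.11 and 0.095 without NUP98-CDX1 replicate 1, 0.077 for both without NUP98-CDX1 replicate 2 and 0.096 for both without NUP98-CDX4 replicate 1, and that of Anxa1 also without NUP98-CDX4 replicate 3 (0.064). For most other genes described above, such as Dlk1 (mean 8.75), Meis1 (10.80), Cebpe (10.24) and Csf1r (9.60 with NUP98-CDX1), the fusions did not pass the test of difference, which does not show that they act alike.

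**Figure D5:**
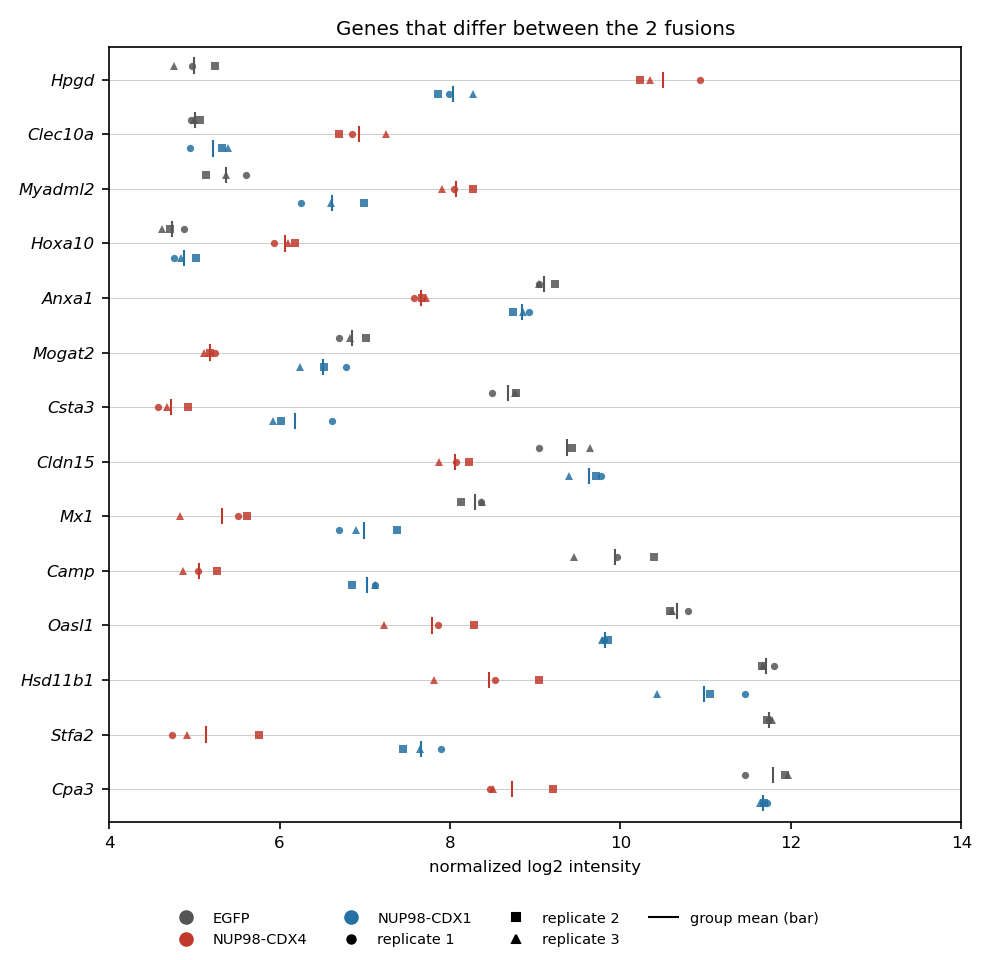
Normalized log2 intensity of 14 of the 18 genes that differed between the fusions, on all 9 arrays, with EGFP in grey, NUP98-CDX4 in red and NUP98-CDX1 in blue, marker shape for the replicate and a bar for the mean of 3. Hpgd stands in 3 separate groups, and Cpa3 and Cldn15 show the NUP98-CDX4 arrays alone at the low end.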

How the data were processed

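Per the labels' protocols, Trizol-extracted and column-cleaned total RNA was turned into biotinylated cRNA for Illumina arrays. The probe intensity values were deposited by the authors without normalization, and GenomeStudio is named in the submitters' processing notes, with no version. Detection p-values were used as the authors deposited them. A further set of intensities was deposited after processing by the authors, whose steps the sources used here leave unnamed, and served only as an alternative.

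Background correction, quantile normalization and the log2 step were done with neqc (limma 3.58.1, offset 16, controls inferred from the detection p-values). The software was R 4.3.3, with tables handled by data.table (1.17.8). Probes detected (p under 0.05) on at least 3 of the 9 arrays were kept, 19472 in all, and 21684 had no array with detection. In the platform annotation 34885 probes had 1 symbol, 18 several and 10378 none, and 34807 matched RefSeq, which changed 0 symbols. The brightest probe stood for a gene, giving 13160 features, of which 3142 are unnamed and only counted (95 called). One limma fit over the 9 arrays, with a mean per group, gave differences, standard errors and Benjamini-Hochberg adjusted p over all features, with 6 residual and 3.28 prior degrees of freedom. A group with a probe detected on 0 of 3 arrays gives a bound, each of its arrays raised to its lowest detected signal (5.24 to 5.45) where that was higher.

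Genes named are Cdx4 and Nup98, the 20 largest rises and the 20 largest falls of 258 and 279 eligible ones, up to 4 called members of smallest p per list and 10 between fusions, 202 in all. Genes named beyond these, as examples that passed or did not pass, were chosen after their values were seen. Eligible genes were called, did not overlap, were detected on all 3 arrays of the higher group and stood outside the Hoxa, late neutrophil, primary granule, mast cell and interferon lists. The lists, the members and the tests were chosen with earlier results of these data known. Of the 80 called and named genes with another kept probe, 19 had an uncalled probe that turned the other way or reached less than 0.5 times the difference, and 0 had one called in the opposite direction. The fit was tested on simulated data. Alternatives were another background correction, normalization, detection filter, probe rule, moderation, array weights, array set and replicate blocks, the 6 arrays alone, and each array left out.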

Additional observations from a re-analysis of the deposited data

Results flagged for a closer look

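A gene is listed here because its difference between NUP98-CDX4 and NUP98-CDX1, tested directly in limma, had an adjusted p under 0.05. Each value is the log2 difference of NUP98-CDX4 minus NUP98-CDX1 over 3 arrays each. Higher with NUP98-CDX4 were Hpgd by 2.47, Clec10a by 1.71, Myadml2 by 1.46 and Hoxa10 by 1.20. Lower with NUP98-CDX4 were the mast cell gene Cpa3 at -2.95, the stefin genes Stfa2 at -2.53 and Csta3 at -1.46, and the granule peptide gene Camp at -1.97. The interferon-induced genes Oasl1 and Mx1 stood at -2.03 and -1.67. Hsd11b1 stood at -2.52, Cldn15 at -1.57, Mogat2, an acyltransferase of triglyceride synthesis, at -1.34 and Anxa1 at -1.19. Of these genes Cpa3 alone was called in the fits without each single array, at adjusted p up to 0.047. Without NUP98-CDX1 replicate 1 or 2 none of the others was called, and without NUP98-CDX4 replicate 1 only Hpgd besides Cpa3. The call of Mogat2 was lost without NUP98-CDX1 replicate 1 (0.11) or 2 (0.14), NUP98-CDX4 replicate 1 (0.11) or 3 (0.088) or EGFP replicate 2 (0.06), and its other probe differed by -0.61 between NUP98-CDX4 and EGFP with no call. The days in the column names differ between the fusions, 17 and 20 against 28, and their part in these differences was not tested.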

How the results depend on the processing

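Of the 201 called genes named by the rule, 117 kept direction and side of the threshold in every tested alternative. The count of 611 (274 higher, 337 lower) became 1782 (926 and 856) with array weights and 1835 (977 and 858) with the array set as a block. With the replicate block it was 371 (145 and 226). Leaving out each array gave 288 to 626 in all, 113 to 281 higher and 175 to 345 lower. It was 288 without EGFP replicate 2, 324 without NUP98-CDX4 replicate 3, 356 without EGFP replicate 1 and 358 without NUP98-CDX4 replicate 1, and the higher count was 167 without NUP98-CDX4 replicate 2. The 18 genes between the fusions became 2994 with array weights, 168 with the set block, 1 with the replicate block and 1 to 38 with an array left out. With an array left out, the Nup98 difference ran from -0.0048 without NUP98-CDX4 replicate 2 to 0.28 without NUP98-CDX4 replicate 3. The cause of these shifts was not tested. Same-numbered arrays correlated at 0.44, -0.62 and -0.60 in their deviations from group means. Both negative values join a brighter array to a dimmer one. NUP98-CDX4 replicate 2 and EGFP replicate 3, both dimmer, correlated at 0.79. Over all pairs of these arrays the sign followed the array set. These values therefore cannot decide whether the numbers pair samples, and the main fit assumed no pairing. Depth limits genes near the floor: 35 rises were undetected in EGFP and 39 falls undetected in NUP98-CDX4.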
